A study of Glycine max with 23 samples.

Results

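The outermost and the innermost cell layer of the young soybean seed coat were compared with each other. Transcript levels had been measured in Glycine max cv. Asgrow A3237 seeds with heart-stage embryos on the Affymetrix Soybean Genome Array, a 1-colour array of short oligonucleotide probes grouped into probe sets. The comparison rests on 4 of the 23 arrays, 2 of the epidermis (the outermost layer) and 2 of the endothelium (the innermost layer, which borders the endosperm). They were chosen by the compartment that the labels give. Pods of 1.3 to 2 cm were fixed and embedded in paraffin, and the layers were cut out of 8 µm sections with a laser. The other groups are 6 captured compartments, namely outer integument, inner integument and hilum (2 arrays each) and endosperm, suspensor and embryo proper (3 each), with ground whole seed and young leaf (2 each). All were the same cultivar without any treatment, and 2 ng of RNA was amplified for each captured array. The labels mark replicates as biological but name no plants behind them, and the p-values therefore cover only how far these samples differ among themselves.

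The seed coat is maternal tissue that develops from the integuments of the ovule. In soybean the epidermis becomes the palisade layer, the hard and, in coloured varieties, pigmented outer face of the seed, while the endothelium lines the coat on the side of the endosperm. Phenylpropanoid metabolism turns phenylalanine into coumaroyl-CoA. One branch of it leads through chalcones to flavonoids, anthocyanins and proanthocyanidins, another through hydroxylated and methoxylated intermediates to lignin and other phenolic compounds. In Arabidopsis the endothelium is the layer that accumulates proanthocyanidins.

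Background was set on each array at the 95th percentile of the probe sets for 2 pathogens that share the array, and lay at 161.5 and 166.6 signal units on the epidermis arrays and at 196.2 and 140.2 on the endothelium arrays. Of 37593 soybean probe sets, 22742 passed background on all arrays of some captured compartment and were tested. The epidermis arrays detected 19063 and 19092 soybean probe sets, the endothelium arrays 17804 and 19683. Replicates correlated at r = 0.918 in epidermis and 0.903 in endothelium, across soybean probe sets on the log2 scale. The endothelium arrays did not stand equally far from the epidermis: epidermis replicates 1 and 2 correlated at 0.874 and 0.869 with endothelium replicate 2, against 0.838 and 0.83 with endothelium replicate 1. Endothelium replicate 2 read above replicate 1 for 611 of the 862 probe sets called higher in epidermis (70.9%, median log2 difference 0.56), and for 49.7% of all tested probe sets (median −0.01). Results that rest on this array pair are therefore given with and without each array.

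Many genes separated the layers, in about equal numbers either way. Of the 22742 probe sets tested, 1817 (7.99%) differed 2-fold or more with an adjusted p below 0.05, and these are termed called. Without any test, the arrays of the layers did not overlap for 12074 probe sets (53.1%). Of the 1817 calls, 862 (3.79% of those tested, 47.4% of the calls) were higher in epidermis and 955 (4.2% and 52.6%) higher in endothelium. The median size of the difference was 3.00 on the log2(signal + 16) scale, on which all log2 differences below are given as epidermis minus endothelium, for the epidermis calls and 2.86 for the endothelium calls. The median difference over all tested probe sets was 0.04. At least 8-fold differences were estimated for 433 of the epidermis calls and 436 of the endothelium calls. The dimmer layer was below background on both arrays for 263 (30.5%) of the probe sets higher in epidermis and 298 (31.2%) of those higher in endothelium. Leaving out 1 array at a time changed the count most through endothelium replicate 1, without which 726 probe sets were called. There were 982 calls without epidermis replicate 1, 833 without epidermis replicate 2 and 1510 without endothelium replicate 2, and no probe set was called in the opposite direction. In laser-captured tissue a lower signal cannot be told apart from fewer captured cells that express the gene, since the arrays measure relative abundance in the amplified RNA.

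**Figure D1:**
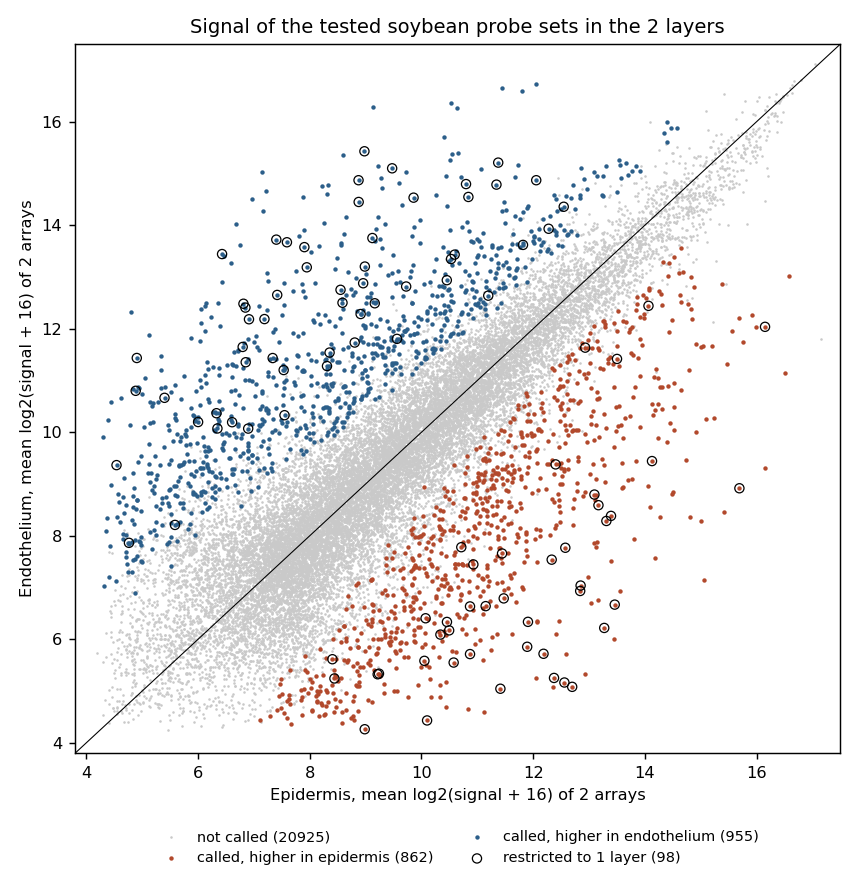
Mean log2(signal + 16) of the 2 epidermis arrays (horizontal axis) against that of the 2 endothelium arrays (vertical axis) for each tested probe set, with the line of equal signal. The 862 probe sets called higher in epidermis lie below the line, the 955 called higher in endothelium above it, and circles mark the 98 probe sets restricted to 1 of the layers.

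SSH2, which encodes a relative of the yeast Sec14 lipid transfer protein, had the largest difference among named genes higher in epidermis. Its signal was 4703 and 7695 on the epidermis arrays, against 7.5 and 38.8 on the endothelium arrays. Both endothelium values were below background, so the gene was at least 33.1-fold higher in epidermis (log2 difference 7.39 ± 0.85 SE, adjusted p = 2.2e-05). BZIP48, a gene of the bZIP transcription factor family, read 957 and 1222 in epidermis, against 6.0 and 5.2 in endothelium. It was at least 6.03-fold higher (5.67 ± 0.80, adjusted p = 0.00013). Each of these genes was well above background in epidermis and undetected in endothelium, and the log2 difference stayed between 6.78 and 8.00 for SSH2, and between 5.49 and 5.84 for BZIP48, without each of the 4 arrays in turn.

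GASA33, a gene of the gibberellin-regulated family of small cysteine-rich peptides, read 22687 and 23474 in epidermis, against 162 and 1170 in endothelium, where 1 of 2 arrays was above background (5.65 ± 0.75, adjusted p = 7.7e-05). PRP1, which encodes a proline-rich protein of the cell wall, read 34309 and 21415 in epidermis, against 1113 and 422 in endothelium (38.6-fold, 5.27 ± 1.04, adjusted p = 0.0028). The epidermis arrays of both genes lay far above the endothelium arrays, and the endothelium replicates differed from each other more than the epidermis replicates did. Without endothelium replicate 1 the difference of GASA33 was 4.28 and that of PRP1 5.95, and both calls were kept. GER10, for a germin-like protein, read 2035 and 4385 in epidermis, against 77.2 and 159.7 in endothelium (4.55 ± 0.72, adjusted p = 0.00038). Here 1 endothelium array passed background, and outer integument was brighter than epidermis (mean 4935). WRKY33, a WRKY transcription factor gene, was 1868 and 2338 in epidermis and below background in endothelium (13.8 and 119.7), at least 11.6-fold higher. The suspensor was brighter still, with a mean of 4167. A second WRKY33 probe set read 2433 and 1946 in epidermis, against 5.2 and 363 in endothelium, with 1 of 2 above background, and its call (4.61 ± 0.90, adjusted p = 0.0025) was lost without endothelium replicate 1 (2.53, adjusted p = 0.073). The nitrate transporter gene NRT1-3 read 9447 and 8183 in epidermis, against 129.4 and 1154 in endothelium. Its mean in outer integument was higher than in epidermis, at 20896. Its call (4.42 ± 1.21, adjusted p = 0.028) was lost without either epidermis array (adjusted p = 0.15 and 0.13) and without endothelium replicate 1 (2.91, adjusted p = 0.40), and a second probe set for it was not called (1.80, adjusted p = 0.29).

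CYP84A16, a member of the P450 family of ferulate 5-hydroxylases, which direct lignin towards syringyl units, was the named gene with the largest difference in favour of the endothelium. It read 5765 and 37.9 in epidermis, against 102825 and 62208 in endothelium. The epidermis arrays differed greatly and only replicate 1 was above background, yet neither reached the endothelium arrays. The log2 difference of −7.16 ± 1.35 (adjusted p = 0.0019) ran from −10.54 to −3.79 with 1 array left out at a time, and stayed called. FAD3C, for a desaturase that makes linolenic acid, read 193 and 38.8 in epidermis, against 12588 and 12422 in endothelium (−6.87 ± 0.83, adjusted p = 3.4e-05). AUX22, an auxin-induced gene of the Aux/IAA family, read 465 and 166.7 in epidermis, against 31548 and 24270 in endothelium (93.4-fold higher there, −6.55 ± 0.81, adjusted p = 3.8e-05). For both genes the endothelium arrays were close to each other, while of the epidermis arrays 1 of 2 was above background for FAD3C and both for AUX22.

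GA2OX6, for an enzyme that inactivates gibberellins, read 205 and 6.5 in epidermis, against 6109 and 5366 in endothelium (−6.35 ± 0.91, adjusted p = 0.00015). NAC34, a NAC transcription factor gene, read 223 and 12.3 in epidermis, against 7944 and 4221 in endothelium (−6.14 ± 0.83, adjusted p = 8.8e-05). In both cases epidermis replicate 1 was just above background and replicate 2 was not. GER2, a germin-like gene as GER10 is, differed in the opposite direction, with 215 and 387 in epidermis against 21561 and 13175 in endothelium (55.3-fold higher there, −5.79 ± 0.85, adjusted p = 0.00019). MYB48, of the MYB transcription factor family, was below background in epidermis (7.8 and 22.4) and read 2458 and 1398 in endothelium, at least 10.4-fold higher. Among the genes named here as higher in endothelium, CYP84A16, FAD3C, AUX22, GA2OX6, NAC34, GER2 and MYB48 all kept their calls without each of the 4 arrays in turn. Another probe set for GA2OX6 did not pass the test (−1.27, adjusted p = 0.41).

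Most of the probe sets with the largest differences carried no gene name. The probe set with the largest difference of all in favour of the epidermis read 27084 and 42989 in epidermis, against 198 and 78.3 in endothelium (7.91 ± 0.98), and was brighter still in outer integument at 60476. Another read 12281 and 10177 in epidermis and was below background in endothelium (25.4 and 84.3), at least 61.5-fold higher in epidermis. Its mean in suspensor was higher still, at 13674. In the other direction an unnamed probe set was below background in epidermis (16.3 and 8.0) and read 5661 and 4553 in endothelium, at least 28.3-fold higher there (−7.51 ± 0.44). Inner integument was brighter than endothelium for it, with a mean of 8448. These probe sets were chosen for large differences among calls whose layers did not overlap.

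The counts per gene list below are to be read beside the calls in general. Of all tested probe sets 7.99% were called, and of the 1236 tested probe sets with a named gene 160 were. Of 10 phenylpropanoid and lignin genes, 5 were called higher in endothelium and 0 in epidermis, with a median log2 difference of −3.47. The calls were CYP84A16, the coumaroyl ester hydroxylase gene CYP98A2, the cinnamoyl-CoA reductase gene CCR and the coumarate ligase genes 4CL1 and 4CL2. Of 9 early flavonoid genes, 4 were higher in epidermis and 0 in endothelium (median 1.68). They were CHI2-A, CHI4A and CHI3A1, named after the chalcone isomerase family, and the chalcone synthase gene CHS8. Among those not called, CHI1A (−0.90), CHI1B1 (−1.44) and CHS1 (−0.24) leaned to the endothelium and F3H (1.68) to the epidermis. Of 6 genes of proanthocyanidin and anthocyanin synthesis, the reductase gene DFR1 and the anthocyanidin synthase gene ANS2 were higher in epidermis and none in endothelium (median 1.38).

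CYP98A2 read 224 and 103 in epidermis, against 16220 and 11209 in endothelium (−6.32 ± 0.85, adjusted p = 8.1e-05). CCR read 163 and 112.2 in epidermis, against 9719 and 6086 in endothelium (−5.67 ± 0.73, adjusted p = 5.4e-05). The endothelium arrays of both genes were more than an order above the epidermis arrays, of which only replicate 1 passed background. 4CL1 was undetected in epidermis (6.7 and 55.4) and read 2949 and 2693 in endothelium, at least 15.7-fold higher. For 4CL2 the values were 292 and 20.2 in epidermis, against 3290 and 2837 in endothelium (−4.86 ± 0.90, adjusted p = 0.0015), and its call was lost without epidermis replicate 2 (−3.32, adjusted p = 0.055). The other 4 calls held without each array in turn, with 4 or 5 of the 10 genes called each time. PAL2.1 and C4H, at the head of the pathway, did not pass the test. The ammonia-lyase gene PAL2.1 read 12614 and 13767 in epidermis, against 9052 and 13051 in endothelium (0.28 ± 0.40, adjusted p = 0.81). The cinnamate hydroxylase gene C4H was at −0.94 ± 0.54 (adjusted p = 0.37). 4CL3, a coumarate ligase gene as 4CL1 and 4CL2 are, was not called either (−2.08 ± 0.69, adjusted p = 0.075).

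DFR1 read 23469 and 21477 in epidermis, against 568 and 2309 in endothelium (19.3-fold, 4.27 ± 0.92, adjusted p = 0.0055). ANS2 read 32447 and 34593 in epidermis, against 997 and 10498 in endothelium (10.3-fold, 3.36 ± 0.79, adjusted p = 0.0097). CHI4A read 27159 and 35262 in epidermis, against 1706 and 6502 in endothelium (9.24-fold, 3.21 ± 0.82, adjusted p = 0.018). All 3 genes were bright on both epidermis arrays, and each was higher on endothelium replicate 2 than on replicate 1, by about an order for ANS2. Without endothelium replicate 1 the estimates were 3.27 for DFR1 (adjusted p = 0.14), 1.67 for ANS2 (0.30), 2.25 for CHI4A (0.30), 2.01 for CHI2-A (0.09), 3.36 for CHI3A1 (0.078) and 1.53 for CHS8 (0.54). None of the early flavonoid and proanthocyanidin calls was then left, and none was left without epidermis replicate 1 either, while 3 and 2 were left without endothelium replicate 2 and without epidermis replicate 2 CHI2-A and DFR1 were left. Further probe sets for CHS8 (2.22 and 2.11) and CHI4A (2.35) were not called. The reductase gene ANR1, which commits the pathway to proanthocyanidins, read 4191 and 6442 in epidermis, against 517 and 6692 in endothelium, so the layers overlapped (1.46 ± 1.05, 95% interval −0.74 to 3.66, adjusted p = 0.51; −0.36 without endothelium replicate 1). CHI3A1 was dim, with 290.9 and 209.3 in epidermis and values below background in endothelium (34.4 and 9.6). It was therefore only at least 1.44-fold higher in epidermis. A further probe set for CHI3A1 was at −0.04 (adjusted p = 0.99). The hydroxylase gene F3H read 79724 and 65702 in epidermis, against 14514 and 35140 in endothelium, and did not pass the test (1.68 ± 1.11, adjusted p = 0.46).

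Of the called flavonoid and proanthocyanidin genes, DFR1, ANS2, CHI4A, CHI2-A and CHS8 had lower means in both integuments than in endothelium and higher means in the hilum, where the seed is attached to the pod. CHI4A averaged 31211 in epidermis, 414 in outer integument, 247 in inner integument and 16112 in hilum. The called genes of the phenylpropanoid and lignin list differed among themselves in where they were high. CYP84A16 averaged 63076 in inner integument, close to endothelium, whereas CYP98A2 (572), CCR (309), 4CL1 (413) and 4CL2 (406) were low there. Of 13 isoflavonoid genes 1 was called, the malonyltransferase gene IF7MaT, undetected in epidermis (7.1 and 52.4) and at 215 and 1849 in endothelium, at least 3.64-fold higher (adjusted p = 0.0042). Another probe set for it was at −0.76 (adjusted p = 0.67), and the call was lost without epidermis replicate 1 and without endothelium replicate 2 (adjusted p = 0.084 and 0.096).

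**Figure D2:**
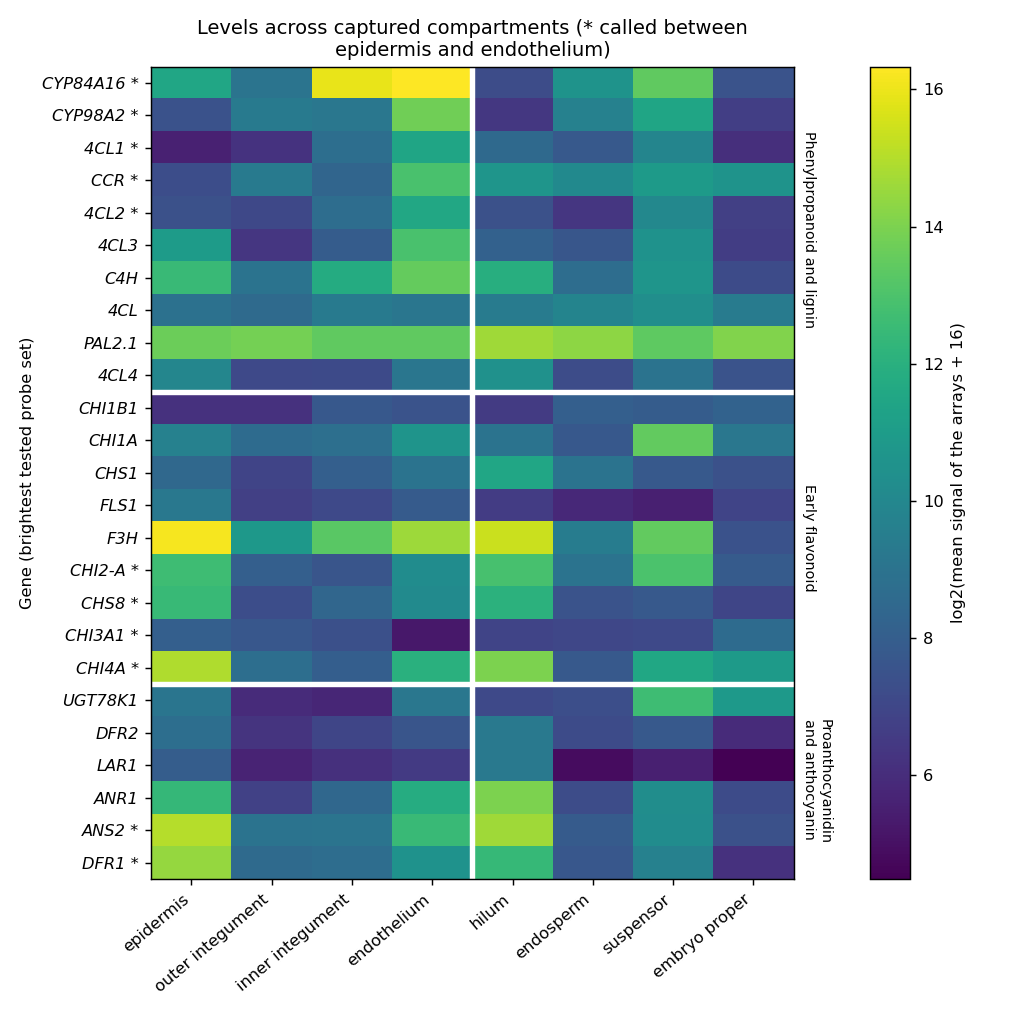
Levels, as log2 of the mean signal + 16, of the tested genes of 3 lists (rows) in the 8 captured compartments (columns), with the 4 coat layers from outside to inside at the left. Asterisks mark genes called between epidermis and endothelium. The 5 called phenylpropanoid and lignin genes are brightest in endothelium, PAL2.1 and 4CL4 in hilum and 4CL in suspensor. CHI4A, ANS2 and DFR1 are bright in epidermis and hilum.

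The proanthocyanidin genes had also been taken as markers of the endothelium, on the knowledge from Arabidopsis, and they did not mark it here. The summed signal of the 6 proanthocyanidin and anthocyanin genes was 61332 and 63654 on the epidermis arrays, against 3110 and 20107 on the endothelium arrays. On the epidermis arrays most of it came from ANS2 and DFR1. The layers overlapped for ANR1, UGT78K1 and LAR1, and DFR2 was not called, so the sum does not speak for each gene. Genes taken as epidermal markers did not mark the epidermis: of 4 tested, 0 were called. The homeobox gene HDL56 read 15376 and 12249 in epidermis and 13135 and 13961 in endothelium (0.02 ± 0.38, adjusted p = 0.99), and CYP77A3, of a P450 family with cutin functions in Arabidopsis, was below background in both layers. HDL57 was at 1.43 ± 0.74 (adjusted p = 0.31), and H1 was below background in both layers. This epidermal set could not test the labels. HDL57 and H1 were also taken as endosperm and embryo markers, and HDL56 still averaged 4652 in embryo proper, its lowest compartment. The layers keep the names of the labels, which the proanthocyanidin set did not bear out and the epidermal set could not test.

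Of 13 genes for cell wall proteins and enzymes, 4 were higher in epidermis and 0 in endothelium, with a list median of 0.10. Besides PRP1 they were XTH1, for an enzyme that cuts and joins xyloglucan, and the proline-rich protein genes SBPRP and PRP3. SBPRP read 4324 and 7548 in epidermis, against 329 and 339 in endothelium (16.4-fold, 4.04 ± 0.52, adjusted p = 5.5e-05). XTH1 read 8893 and 14006 in epidermis, against 329 and 2039 in endothelium (13.3-fold, 3.73 ± 0.61, adjusted p = 0.00057). Both kept their calls without each array in turn. PRP3 was the weakest (1222 and 4472 in epidermis, against 46.9 and 298 in endothelium, adjusted p = 0.049) and was lost without either epidermis array (adjusted p = 0.077 and 0.35) or endothelium replicate 1 (2.91, adjusted p = 0.44). The outer integument exceeded the epidermis for SBPRP (46664) and XTH1 (39088), while PRP1 averaged 641 there.

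Of 21 aquaporin genes, which encode water channels, 1 was higher in epidermis and 1 in endothelium (median 0.03), a share near the 7.99% called over all probe sets tested, and both belong to the PIP2 group of the plasma membrane. PIP2-4 read 72761 and 57942 in epidermis, against 4137 and 4243 in endothelium (15.4-fold, 3.95 ± 0.89, adjusted p = 0.0071). PIP2-6 read 6445 and 1969 in epidermis, against 123260 and 79939 in endothelium (27.7-fold higher there, −4.79 ± 0.62, adjusted p = 5.8e-05). The 2 genes were bright in opposite layers and their layers did not overlap. PIP2-6 had means of 4207 in epidermis, 43543 in outer integument, 128130 in inner integument and 101599 in endothelium, and it kept its call without each array. The call of PIP2-4 was lost, at an adjusted p of 0.068 each time, without epidermis replicate 1 and without endothelium replicate 1.

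Of 13 genes for sugar transport and sucrose use, 0 were higher in epidermis and 2 in endothelium (median −0.26). SWEET13, of the family of SWEET sugar carriers, was below background in epidermis (114.7 and 152.6) and read 1354 and 1456 in endothelium, at least 7.89-fold higher (adjusted p = 0.011). STP1, for a monosaccharide transporter, read 4700 and 2773 in epidermis, against 20049 and 18784 in endothelium (5.36-fold higher there, adjusted p = 0.022), but a second probe set for it was at −0.57 (adjusted p = 0.73). Inner integument was brighter still, with 5776 for SWEET13 and 34679 for STP1. Neither call survived the loss of any 1 of the 4 arrays, although the estimates stayed between −3.44 and −3.07 for SWEET13 and between −2.80 and −2.04 for STP1. The sucrose synthase gene SS was even between the layers, 19794 and 21657 in epidermis and 24955 and 24572 in endothelium (−0.26 ± 0.34, 95% interval −0.98 to 0.46, adjusted p = 0.78).

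Among 9 genes of nitrogen assimilation and transport, 2 were higher in epidermis and 1 in endothelium (median 1.44). GS1-GAMMA, for a cytosolic glutamine synthetase, read 713 and 47.4 in epidermis, against 11282 and 6877 in endothelium (−5.36 ± 0.79, adjusted p = 0.00021), and kept its call without each array. Inner integument was brighter than endothelium for GS1-GAMMA, with a mean of 38303. GDH1, for glutamate dehydrogenase, went the other way with 3429 and 3026 in epidermis, against 669 and 514 in endothelium (5.37-fold, adjusted p = 0.019). The GDH1 call was lost with any 1 of the 4 arrays left out (2.24 to 2.61), and another probe set for it was at 0.14 (adjusted p = 0.96). A second glutamine synthetase gene, GS1-1, read 39138 and 32045 in epidermis, against 7609 and 22436 in endothelium, without passing the test (1.44 ± 0.49, adjusted p = 0.086).

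Of 12 NAC genes 3 were higher in endothelium and 0 in epidermis (median −1.69): NAC34, NAC14 and NAC6. NAC14 read 451 and 584 in epidermis, against 1546 and 2128 in endothelium (3.46-fold higher there, adjusted p = 0.0038), while 2 further probe sets for it were not called (−0.73 and 0.31, adjusted p = 0.62 and 0.91). NAC6 was undetected in epidermis (53.2 and 57.8) and read 378 and 1132 in endothelium, at least 3.74-fold higher (adjusted p = 0.019). Only NAC34 of the 3 kept its call without each array, as NAC14 missed the threshold without epidermis replicate 1 (adjusted p = 0.054) and NAC6 without epidermis replicate 1, epidermis replicate 2 or endothelium replicate 2 (0.11, 0.10 and 0.18).

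Of 33 WRKY genes 2 were higher in epidermis and 4 in endothelium (median −0.02). WRKY29 read 1702 and 1620 in epidermis, against 39.1 and 235 in endothelium (3.83 ± 0.84, adjusted p = 0.0059; 2.74 and adjusted p = 0.16 without endothelium replicate 1, and adjusted p = 0.051 and 0.052 without epidermis replicates 1 and 2). Its mean in hilum was 1872, and in the other 5 captured compartments it was at most 107.5. WRKY51 read 455 and 107 in epidermis, against 7439 and 5281 in endothelium (−4.71 ± 0.55, adjusted p = 2.4e-05). WRKY54 was undetected in epidermis (36.3 and 39.5) and read 451 and 1001 in endothelium, at least 3.83-fold higher (adjusted p = 0.00048). Both kept their calls without each array, and both were higher in suspensor than in endothelium, with means of 32801 for WRKY51 and 1994 for WRKY54. WRKY51 was 1 of 3 genes taken as suspensor markers, whose summed signal was 580.8 and 245.6 in epidermis, against 7681 and 5409 in endothelium. The other markers, PM9 and MP2, were below background in both layers, so the sum followed WRKY51. A further probe set for WRKY51 was at 0.02 (adjusted p = 1).

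Of 44 MYB genes 2 were higher in endothelium and 0 in epidermis (median −0.11), MYB48 and MYB124. Of 49 bZIP genes 1 was higher in epidermis, BZIP48, and 3 in endothelium, BZIP68, BZIP59 and BZIP46 (median −0.22), again near the 7.99% over all probe sets. BZIP46 lost its call with any 1 of the 4 arrays left out (adjusted p from 0.073 to 0.25), and BZIP59 without either epidermis array (0.061 and 0.16) or endothelium replicate 1 (0.24). MYB124 lost it without epidermis replicate 2 (0.073) and without endothelium replicate 1 (0.088). BZIP68 changed least of all the named genes that kept their calls without each array, with 2271 and 2094 in epidermis, against 5794 and 5940 in endothelium (2.68-fold higher there, −1.42 ± 0.29, adjusted p = 0.0039). Of 31 genes in smaller families, 4 were higher in epidermis and 1 in endothelium (median 0.56). The phosphate-response factor gene PHR24 read 6919 and 6998 in epidermis, against 870 and 1256 in endothelium (6.57-fold, 2.72 ± 0.37, adjusted p = 0.0001). Dof6, of the Dof zinc-finger family, read 132 and 628 in epidermis, against 6803 and 3513 in endothelium (−3.99 ± 0.88, adjusted p = 0.0063). Without endothelium replicate 1 the call of PHR24 was kept (2.45, adjusted p = 0.0046) and that of Dof6 lost (−3.52, adjusted p = 0.11), as it was without epidermis replicate 1 (−2.93, adjusted p = 0.14). None of 6 MADS-box genes, the floral and ovule identity family, was called (median −0.44), and AGL1L read 8505 and 8750 in epidermis and 11310 and 11890 in endothelium.

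Hormone-related genes were called in few cases outside the GASA family. Of 13 GASA genes 3 were higher in epidermis (GASA33, GASA22 and GASA6) and 2 in endothelium (GASA34 and GASA3), with a median of −0.37. GASA22 read 7692 and 5976 in epidermis, against 597 and 271 in endothelium (16.2-fold, 4.02 ± 0.70, adjusted p = 0.00096). GASA34 read 247 in epidermis replicate 1 and below background in replicate 2, against 2968 and 3954 in endothelium (−4.30 ± 0.71, adjusted p = 0.00059). GASA6 was the brightest of the family in epidermis at 66850 and 56922, against 1409 and 17197 in endothelium. Its call (adjusted p = 0.017) was lost without endothelium replicate 1 (1.84, adjusted p = 0.41) and without either epidermis array (0.12 and 0.091), whereas GASA33, GASA22 and GASA34 kept theirs. Of 8 auxin genes AUX22 alone was called, and no gene of 10 for gibberellin, cytokinin and ethylene was called by its brightest probe set (median −0.24). The call of GA2OX6 given earlier (−6.35) came from a probe set outside this count, and another probe set for that gene was not called (−1.27, adjusted p = 0.41).

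Among 18 lipoxygenase and jasmonate genes, 3 were higher in epidermis and 1 in endothelium, with a median of 1.29. LOX7 read 2840 and 3568 in epidermis, against 383 and 747 in endothelium (5.80-fold, adjusted p = 0.017). AOC6, for the allene oxide cyclase of jasmonate synthesis, was undetected in endothelium (49.7 and 72.5) and read 486 and 576 in epidermis, at least 2.99-fold higher there (adjusted p = 0.006). The vegetative lipoxygenase gene VLXB was 4.32-fold higher in epidermis (3166 and 2024, against 547 and 603 in endothelium, adjusted p = 0.02). The outer integument was brighter than the epidermis for LOX7 (48768) and VLXB (21479) and close to it for AOC6 (means of 531 in epidermis and 486 in outer integument). LOX3 was undetected in epidermis (106.8 and 35.4), and with 441 and 535 in endothelium it was at least 2.79-fold higher there (adjusted p = 0.026). Each of these 4 calls was lost without endothelium replicate 1 (adjusted p = 0.22, 0.076, 0.14 and 0.12 in the order given) and without epidermis replicate 2 (0.13, 0.063, 0.056 and 0.26). Those of LOX7 and VLXB were lost without epidermis replicate 1 too (0.073 and 0.20), and those of VLXB and LOX3 without endothelium replicate 2 (0.069 and 0.12).

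Detoxification genes were called in both directions. Of 27 glutathione S-transferase genes 5 were higher in epidermis and 2 in endothelium (median −0.19). GSTU41, higher in endothelium, was at −1.91, and at −1.50 without endothelium replicate 1. Its further probe sets were at −3.67 and 0.53. GSTU30 read 9262 and 8591 in epidermis, against 45.0 and 775 in endothelium (5.35 ± 1.02, adjusted p = 0.0021). Outer integument was brighter than epidermis for GSTU30, with a mean of 15960. GSTU17 read 1323 and 923 in epidermis and was below background in endothelium (6.1 and 73.2), at least 6.16-fold higher in epidermis. GSTU17 kept its call without each array and GSTU30 lost it without endothelium replicate 1 (3.5, adjusted p = 0.08). Of 22 redox genes, 2 were higher in epidermis and 2 in endothelium (median −0.40). Those higher in endothelium were PRX3 (−3.23) and CAT1 (−1.36), at −3.55 and −0.99 without endothelium replicate 1. The ferritin gene SFERH-3, for an iron store, read 7871 and 7982 in epidermis, against 425 and 1834 in endothelium (8.79-fold, 3.14 ± 0.60, adjusted p = 0.002; 2.10 and adjusted p = 0.078 without endothelium replicate 1).

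Plastid genes did not move together. Of 18 photosynthesis and chlorophyll genes, 1 was higher in epidermis and 3 in endothelium (median 0.20). CAB3, for a chlorophyll-binding protein of the light-harvesting complex, read 45538 and 51588 in epidermis, against 2723 and 5683 in endothelium (12.3-fold, 3.62 ± 0.51, adjusted p = 0.00013). HEMB, for an early enzyme of chlorophyll and haem synthesis, read 2136 and 1812 in epidermis, against 9730 and 10018 in endothelium (4.99-fold higher there, −2.32 ± 0.35, adjusted p = 0.00024). SGR2, a stay-green gene of chlorophyll breakdown, read 336 and 368 in epidermis, against 4126 and 1648 in endothelium (7.14-fold higher there, adjusted p = 0.0045; adjusted p = 0.13 without endothelium replicate 1). CAB3 and HEMB kept their calls without each array, and SGR1, at least 2.12-fold higher in endothelium, lost its call with any 1 of the 4 left out (−3.46 to −2.72). One further probe set for CAB3 was lower in epidermis without being called (−0.94).

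Of 14 fatty acid genes, the linolenic acid desaturase genes FAD3C and FAD8.2 were higher in endothelium and none in epidermis (median −0.02). FAD8.2, the plastid form, read 793 and 1261 in epidermis, against 5342 and 4018 in endothelium (4.57-fold higher there, −2.19 ± 0.41, adjusted p = 0.0018), and kept its call without each array. Inner integument was as bright or brighter, with 35925 for FAD3C and 5436 for FAD8.2. Of the 25 heat shock, folding and cyclophilin genes 0 were called (median −0.28), and likewise 0 of 20 seed maturation genes (median −0.12) and 0 of 8 genes of the cytoskeleton and cell cycle (median 0.26).

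**Figure D3:**
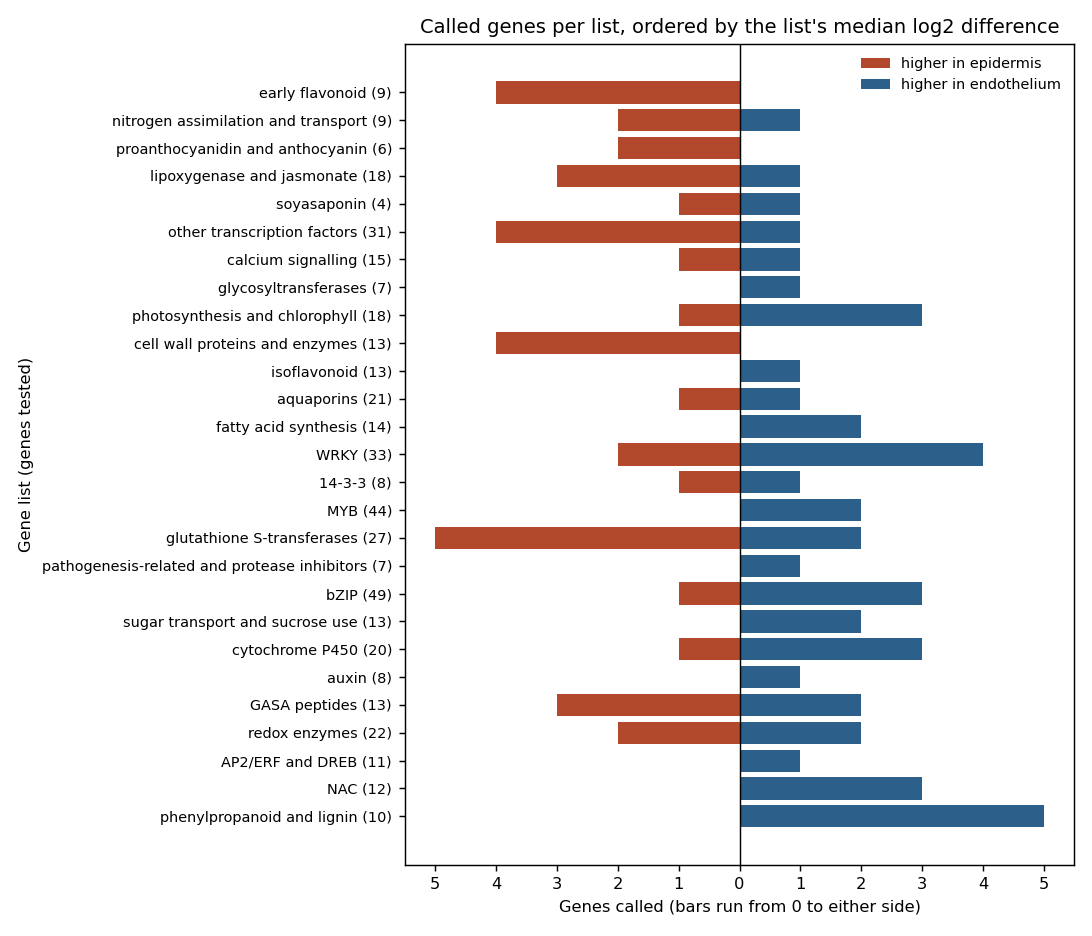
Genes called higher in epidermis (bars to the left) and higher in endothelium (bars to the right) in each list with a call, with the number of genes tested in parentheses, ordered from the highest median log2 difference (early flavonoid, 1.68) at the top to the lowest (phenylpropanoid and lignin, −3.47) at the bottom. Cell wall and flavonoid lists have calls on the epidermis side alone, NAC and phenylpropanoid lists on the endothelium side alone.

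Few of the differences set a layer apart from the whole seed. A probe set was termed restricted where its layer exceeded all 7 remaining captured compartments 2-fold or more, every time with an adjusted p below 0.05. Restricted to epidermis were 43 probe sets (0.189% of those tested), and to endothelium 55 (0.242%). SSH2 and BZIP48 were the 2 epidermis-restricted probe sets with a gene symbol beyond a locus number. The next highest compartment of both was the hilum, 23.5-fold lower for SSH2 and 11.4-fold lower for BZIP48. For BZIP48 the hilum was below background on both arrays (mean 79.9), so the size of that margin is uncertain. LOC100791502, a locus without a gene symbol and among the largest differences, had outer integument as its nearest compartment, at an estimated margin of 86.7-fold. The size of that margin is uncertain, since outer integument averaged 94.4 (SD 112.4) with 1 of 2 arrays above background. LOC100791502 read 8167 and 5379 in epidermis, against 19.4 and 16.4 in endothelium, at least 36.5-fold higher.

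The 4 named genes with the widest margin among those restricted to endothelium were CCR, WRKY32, MET2 and CYP98A2. For CCR the probe set given earlier did not meet the criterion (largest adjusted p against another compartment 0.069). A second probe set met it, with 636 and 41.1 in epidermis, against 16436 and 10307 in endothelium and a margin of 9.97-fold over the suspensor. MET2 read 1039 and 464 in epidermis, against 39968 and 30760 in endothelium (49.3-fold higher there, −5.62 ± 0.57, adjusted p = 6.3e-06), 6.42-fold above the suspensor, although 1 of its 4 further probe sets was at 0.27 (adjusted p = 0.80). The margin of CYP98A2 was 5.42-fold, also over the suspensor, and 1 of its further probe sets was not called (−0.64, adjusted p = 0.71). Another, at −5.98, was called but not restricted (largest adjusted p against another compartment 0.073). WRKY32 read 130 and 223 in epidermis, against 1565 and 1030 in endothelium, 6.52-fold above inner integument, but its call against the epidermis (−2.78 ± 0.81, adjusted p = 0.039) was lost with any 1 of the 4 arrays left out. Leaving out 1 array gave 18 to 35 probe sets restricted to epidermis, fewest without either epidermis array. For the endothelium it gave 19 without endothelium replicate 1, 28 without endothelium replicate 2 and 44 or 49 without an epidermis array.

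The integuments between the layers mostly sided with their neighbour. Of the 862 probe sets higher in epidermis, the outer integument was nearer to epidermis than to endothelium in level for 551 (63.9%) and the inner integument for 183 (21.2%). Of the 955 higher in endothelium, the outer integument was nearer to epidermis for 656 (68.7%) and the inner integument for 245 (25.7%). A steady order from epidermis through both integuments to endothelium was seen for 195 (22.6%) of the first and 209 (21.9%) of the second. Both integuments stood nearer to endothelium for 291 (33.8%) of the probe sets higher in epidermis, the pattern of DFR1 and ANS2. Epidermis was the highest of the 8 compartments for 388 (45%) of the probe sets called higher there, against 9.78% of all tested. Endothelium was the highest for 316 (33.1%) of its own, against 8.37% of all tested, and inner integument for 365 (38.2%). Tested against their neighbours in the same fit, the epidermis differed from the outer integument at 1054 probe sets (4.63%) and the endothelium from the inner integument at 1799 (7.91%).

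**Figure D4:**
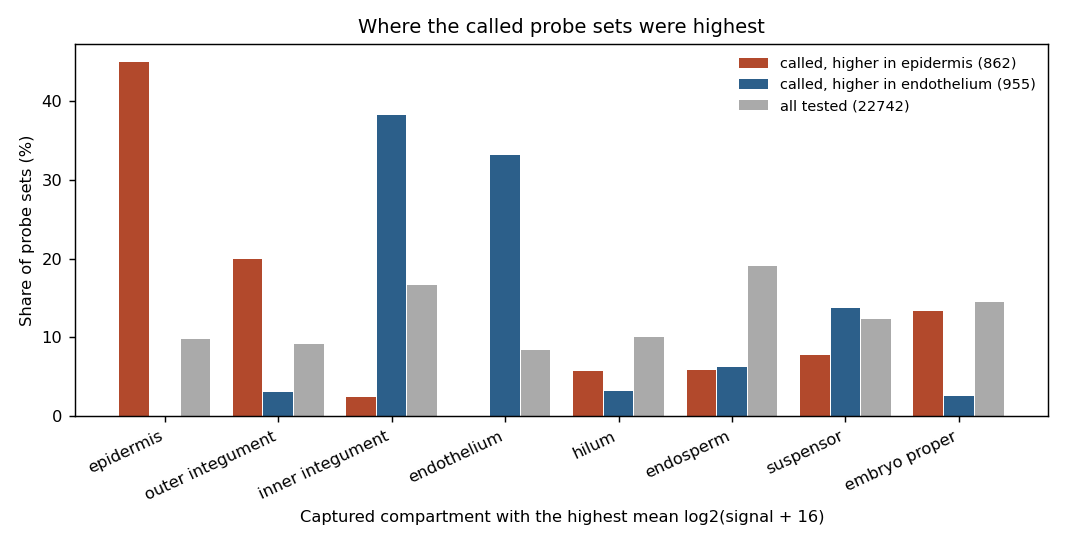
Share of probe sets (vertical axis, %) whose highest mean log2(signal + 16) lay in each captured compartment, for the 862 called higher in epidermis, the 955 called higher in endothelium and all 22742 tested. Inner integument was the highest compartment for 38.2% of the probe sets higher in endothelium, above endothelium itself at 33.1%. The excess of the called layer over all tested is partly set by the choice of probe sets.

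The endosperm lies against the endothelium, so its genes were measured in both layers. A set of 169 probe sets at least 4-fold higher in endosperm (adjusted p under 0.05) than in embryo proper, suspensor, hilum and both integuments was chosen. The choice did not compare the levels of the epidermis and endothelium arrays, although these arrays entered the fit's shared spread. Their signal was a median of 2.45% of the endosperm level in epidermis and 3.43% in endothelium. Of the 169, 40 were above background on both arrays in epidermis and 62 in endothelium. Summed, they read 79385 and 52044 on the epidermis arrays, against 152734 and 129728 on the endothelium arrays. Of the 169, 5 were called higher in epidermis and 13 in endothelium (median log2 difference −0.64). Over all tested probe sets 3.79% were called higher in epidermis and 4.2% in endothelium. Of 8 endosperm marker genes 1 was called, FAD3C, higher in endothelium, and the median difference over the 8 was 0.62. Their summed signal was 4136 and 3935 in epidermis, against 19623 and 19030 in endothelium, most of it from FAD3C and from SPK-1 (4828 and 3265 in endothelium). Both of these genes were brighter in endothelium than in endosperm. MFT, among these markers, was below background in both layers, as were the embryo markers LEC1-A, WRI1B and H1. None of the 4 embryo markers was called, and PHANa read 986 and 763 in epidermis, against 260 and 464 in endothelium (1.28 ± 0.45, adjusted p = 0.096). The part of neighbouring tissue in the calls was not tested.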

How the data were processed

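The deposited values are linear intensities, 1 per probe set and array, made by the authors with GCOS 1.3 per the submitters' processing notes; the method that joined probes into a value is not stated in them. Each array's mean after trimming 2% was close to 500, so the authors' values were taken as scaled and were not normalised again. Values with 16 added were log2-transformed. Probe sets above background (the 95th percentile of the pathogen probe sets) on every array of a captured compartment were tested with limma 3.58.1 in R 4.3.3 (lmFit, and eBayes with trend) over the 19 captured arrays, with 11 residual degrees of freedom, 2-sided, and Benjamini-Hochberg adjustment over all 22742 probe sets. Errors are standard errors from that fit, from 2 arrays per layer, whose number limits the precision; samples were grouped by their labels. Where the dimmer layer was below background on both arrays, a fold is a lower bound. Replicate numbers of different layers did not pair the samples.

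Names came from the platform annotation, updated through RefSeq identifiers: 8677 soybean probe sets had 1 gene, 370 several and 28546 none listed, and 855 named genes were tested. Lists were counted by the brightest probe set of a gene. Genes are named where they were among the 14 largest differences of named genes each way or the 5 largest whatever the name. Both were taken from calls whose layers did not overlap and whose brighter layer passed background on both arrays. Also named are the up to 4 calls with the smallest adjusted p in each of 34 lists, and the 4 restricted genes with the widest margin. A few more list members are given as examples, chosen after their values were seen. Members and lists were chosen with earlier results of these data known, and list patterns were corrected once the array's symbols were seen. The test was tried on simulated data. Alternatives were other offsets, backgrounds, scalings, filters, array weights, a replicate block and leaving out arrays.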

Additional observations from a re-analysis of the deposited data

How the results depend on the processing

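With 1 of the 4 arrays left out, 726 to 1510 probe sets were called, 290 to 833 higher in epidermis and 436 to 677 higher in endothelium, with 18 to 35 restricted to epidermis and 19 to 49 to endothelium. Epidermis-higher calls then made up 38.7% to 55.2% of the calls, against 47.4% with all arrays. Of the 1817 calls, 691 (38%) remained without endothelium replicate 1, 788 (43.4%) without epidermis replicate 2, 942 (51.8%) without epidermis replicate 1 and 1268 (69.8%) without endothelium replicate 2. Of 92 called probe sets of the genes named, 45 kept their call without each of the 4 arrays and 43 in all 19 alternatives. Without suspensor replicate 1 and endosperm replicate 1, 2703 probe sets were called; the number of probe sets called higher in epidermis was 1319 and that of probe sets called higher in endothelium 1384, with 78 probe sets restricted to epidermis and 83 probe sets restricted to endothelium. With array weights 1323 were higher in epidermis and 105 restricted to it. An offset of 1 left 24 probe sets restricted to epidermis, and an offset of 64 gave 93 and 96 restricted to epidermis and endothelium; the cause was not tested. With equal medians of detected probe sets the median of all tested probe sets was 0.10 and 50.6% of the calls were higher in epidermis. Replicate numbers did not pair the samples (correlation of the deviations 0.0539), and with the replicate block 1992 probe sets were called, 952 higher in epidermis and 1040 in endothelium. No called result reversed, and in none of the 19 alternatives was a probe set called in the opposite direction. With 2 arrays per layer the median standard error was 0.633, and a signal near background carries little order.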

Other observations

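Further lists had few calls. Of 20 cytochrome P450 genes 1 was higher in epidermis and 3 in endothelium (median −0.28). CYP93E1, for an enzyme of soyasaponin synthesis, read 553 and 1593 in epidermis, against 217 and 106 in endothelium (2.50, adjusted p = 0.036), and 2 further probe sets for it were not called (−1.37 and 0.04). CYP90A15, of a family of brassinosteroid hydroxylases, read 626 and 641 in epidermis, against 2599 and 2439 in endothelium (3.90-fold higher there, adjusted p = 0.0036), and kept its call without each of the 4 arrays. Of 15 calcium signalling genes the calmodulin-binding gene IQD18 was higher in epidermis (1.91, adjusted p = 0.0052) and the protein kinase gene CDPK-GAMMA in endothelium (−2.74, adjusted p = 0.0036). Of 8 genes for 14-3-3 proteins 1 was higher in each layer, SGF14n in epidermis and SGF14f in endothelium. Of 11 AP2/ERF genes AP2-9 was higher in endothelium (−2.49, adjusted p = 0.05 after rounding), and of 7 defence and inhibitor genes the cysteine protease inhibitor gene CYSTATIN (−1.67, adjusted p = 0.0073). Of 7 glycosyltransferase genes 1 was called, higher in endothelium, and of 4 soyasaponin genes 1 was higher in each layer. Those of CYP93E1, IQD18, CDPK-GAMMA, SGF14n, SGF14f, AP2-9 and CYSTATIN were lost without endothelium replicate 1, at adjusted p values between 0.051 (CDPK-GAMMA) and 0.34 (AP2-9). All but CDPK-GAMMA were also lost without epidermis replicate 2, at adjusted p values between 0.055 (SGF14n) and 0.36 (CYP93E1).

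The pathogen probe sets of the array, tested in the same way, gave 1 call among 1255 (0.0797%), higher in epidermis.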
